A study of Mus musculus with 4 samples.

Results

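The serum amyloid A genes Saa1, Saa2, Saa3 and Saa4 were followed over the 4 liver arrays of this series. They were chosen by gene symbol, in view of their measured differences between these arrays, and where a symbol had several probe sets, the brightest on average was to be used. Of the 4 symbols, 3 (Saa2, Saa3 and Saa4) had a probe set of their own, out of 22180 genes in all. Saa1 had none: it was represented by a probe set annotated to both Saa1 and Saa2 (17491205), which is described as the shared probe set. All 3 genes and the shared set had mean log2 values above the 3.47 that separated the 13308 measured genes from the dim ones. Saa1 and Saa2 each carry the other's name among their older symbols, and the probe sets were picked by the symbol that the platform's annotation gives.

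The samples were total liver of C57Bl6 mice aged 16 weeks, all with floxed MyD88 alleles (MyD88 lox/lox). The knockout mice (LKO) also carried ALB Cre, a Cre recombinase under the albumin promoter that deletes the gene in hepatocytes, while the other liver cells keep it; the wild-type mice (WT) carried the lox/lox alleles without Cre. The groups were knockout on high-fat diet with 60% fat (LKO-HFD), wild type on that diet (WT-HFD), knockout on control diet with 9.4% fat (LKO-CT) and wild type on control diet (WT-CT). RNA of 4 to 5 mice per group, selected for RNA quality, was pooled before 100 ng was labelled, so each group is 1 array, the number of arrays limits the precision, and the spread between mice is unknown. No difference below has a replicate check or a p-value, and each is the log2 value of one array minus that of another.

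Serum amyloid A proteins are small apolipoproteins that travel on high-density lipoprotein. In the acute phase response, interleukin 6, interleukin 1 and tumour necrosis factor act on hepatocytes through STAT3, NF-kappaB and C/EBP factors, and Saa1 and Saa2 are among the genes most strongly induced there. Mouse Saa3 is also made outside hepatocytes, for example in macrophages and adipocytes, and Saa4 is known as the constitutive member. MyD88 is the adaptor that carries signals of Toll-like receptors and of the interleukin 1 receptor, so it stands upstream of NF-kappaB.

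The promoter windows are shown because Saa1 and Saa2 share a probe set and, as described next, nearly their whole promoter sequence. The Saa3 and Saa4 windows differ from them in sequence. No link between window sequence and array profile was tested. Each window is from RefSeq (GRCm38.p6, mouse chromosome 7), runs 5′ to 3′ from 250 bases before the annotated transcript start to 50 bases after it, and was found for 4 of 4 genes. Capitals mark matches to the C/EBP motif TTGCNNAA on either strand.
Saa1 promoter, chr7:46742931-46743230, minus strand: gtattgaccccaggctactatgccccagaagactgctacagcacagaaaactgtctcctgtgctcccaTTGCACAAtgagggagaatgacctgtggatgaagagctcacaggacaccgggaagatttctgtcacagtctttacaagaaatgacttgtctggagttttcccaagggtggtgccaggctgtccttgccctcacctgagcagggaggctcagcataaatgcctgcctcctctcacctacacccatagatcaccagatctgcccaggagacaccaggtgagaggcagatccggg
Saa2 promoter, chr7:46751583-46751882, plus strand: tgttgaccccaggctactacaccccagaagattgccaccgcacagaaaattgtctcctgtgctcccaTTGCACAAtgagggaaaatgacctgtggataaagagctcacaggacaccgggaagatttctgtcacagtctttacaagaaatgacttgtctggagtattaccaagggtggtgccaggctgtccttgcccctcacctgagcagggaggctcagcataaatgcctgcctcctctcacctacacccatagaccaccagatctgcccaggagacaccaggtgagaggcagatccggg
Saa3 promoter, chr7:46715627-46715926, minus strand: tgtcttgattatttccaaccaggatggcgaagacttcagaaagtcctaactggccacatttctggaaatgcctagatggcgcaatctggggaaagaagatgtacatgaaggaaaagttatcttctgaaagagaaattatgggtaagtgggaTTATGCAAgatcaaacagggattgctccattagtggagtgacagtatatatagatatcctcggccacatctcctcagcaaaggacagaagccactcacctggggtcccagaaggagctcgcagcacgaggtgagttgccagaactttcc
Saa4 promoter, chr7:46732554-46732853, minus strand: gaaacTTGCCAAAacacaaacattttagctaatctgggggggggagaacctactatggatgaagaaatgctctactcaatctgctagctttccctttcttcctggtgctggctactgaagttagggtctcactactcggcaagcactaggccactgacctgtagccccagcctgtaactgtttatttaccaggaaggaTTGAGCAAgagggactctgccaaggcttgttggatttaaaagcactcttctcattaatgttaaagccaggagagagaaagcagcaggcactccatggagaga

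Over the aligned bases the Saa1 and Saa2 windows were 96.0% identical (287 of 299). Every other pair was between 43.8% (Saa3 and Saa4) and 47.2% (Saa1 and Saa3) identical. The identity of unrelated windows was not computed, so these lower values are not read as shared sequence. TTGCNNAA occurred once in the windows of Saa1, Saa2 and Saa3 and at 2 places in that of Saa4, against 10.8% of all 32851 promoter windows of the table that hold it. In Saa1 it lay at bases -182 to -175 and in Saa2 at -183 to -176, with the first transcribed base counted as 1 and the base before it as -1. In Saa3 it lay at -99 to -92, and in Saa4 at -245 to -238 and at -52 to -45. A NF-kappaB motif of 3 G, any 2 bases, 3 T and 2 C was in 0 of the 4 windows and in 1.63% of all windows. The STAT3 motif TTCNNGGAA (4.81% of all windows) and TATAAA (13.6%) were also in 0 of the 4, both strands searched. With looser motifs, a NF-kappaB pattern of 3 G, any 5 bases and 2 C matched once each in Saa1, Saa2 and Saa4 (50.8% of all windows), and TTNNGNAA, which overlaps the C/EBP matches above, occurred 4 times in Saa3, at 2 places each in Saa1 and Saa4 and once in Saa2 (40.7%). TTCNNNGAA was in 0 of the 4 (8.30%). Both NF-kappaB patterns begin with 3 G, and sequences that vary there were not searched for. A match is a run of letters in the reference and not a measured binding site.

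The log2 level of the inducible Saa2 (probe set 17478195) was 10.83 on LKO-HFD, 10.73 on WT-HFD, 12.34 on LKO-CT and 4.97 on WT-CT. WT-CT was the low array by a wide margin, LKO-CT was the highest, and the 2 high-fat arrays lay close together between them. On the linear scale, the high-fat arrays reached 35.0% (LKO-HFD) and 32.6% (WT-HFD) of the LKO-CT value, and WT-CT reached 0.605% of it. The step between the 2 high-fat arrays was 0.10 log2, and the step from them down to WT-CT was 5.76.

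The shared Saa1 and Saa2 probe set had 10.49 on LKO-HFD, 10.75 on WT-HFD, 12.07 on LKO-CT and 5.96 on WT-CT. It had the same highest and lowest array as the Saa2 set, but the order of the 2 high-fat arrays was the opposite, with steps of 0.26 log2 in the shared set and 0.10 in the Saa2 set. Values of either set may mix copies of these near-identical genes, so Saa1 cannot be read apart from Saa2 here, and cross-hybridisation was not tested.

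Saa3 (probe set 17491193), the member that macrophages and adipocytes also make, had 8.93 on LKO-HFD, 7.49 on WT-HFD, 8.50 on LKO-CT and 5.46 on WT-CT. Both knockout arrays were above both wild-type arrays, and LKO-HFD rather than LKO-CT was the highest. WT-HFD reached 36.9% of the LKO-HFD value on the linear scale, LKO-CT 74.3% and WT-CT 9.01%. Markers of the exocrine pancreas, present in these liver RNAs, had a summed level in the same array order, with 7239 on LKO-HFD, 3107 on WT-HFD, 3452 on LKO-CT and 643 on WT-CT (2 raised to each log2 value, over 12 markers). The sums on LKO-CT and WT-HFD were close. Cpa1, Ctrb1, Try4 and Cela1 were slightly higher on WT-HFD than on LKO-CT, while the other measured markers had the order of Saa3. The part of these markers in the Saa3 values was not tested. Because bulk liver RNA was pooled, fewer cells of a type and less RNA per cell cannot be told apart.

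Saa4 (probe set 17491199), the constitutive member, had 12.33 on LKO-HFD, 12.43 on WT-HFD, 11.78 on LKO-CT and 11.30 on WT-CT. Its whole range was 1.13 log2, against 3.47 for Saa3, 6.10 for the shared set and 7.37 for Saa2. Both high-fat arrays were above both control-diet arrays, a split that none of the other sets showed. WT-CT was the lowest array for Saa2, Saa3, Saa4 and the shared set alike, and so every comparison that subtracts it gives a positive difference for each of them.

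**Figure D1:**
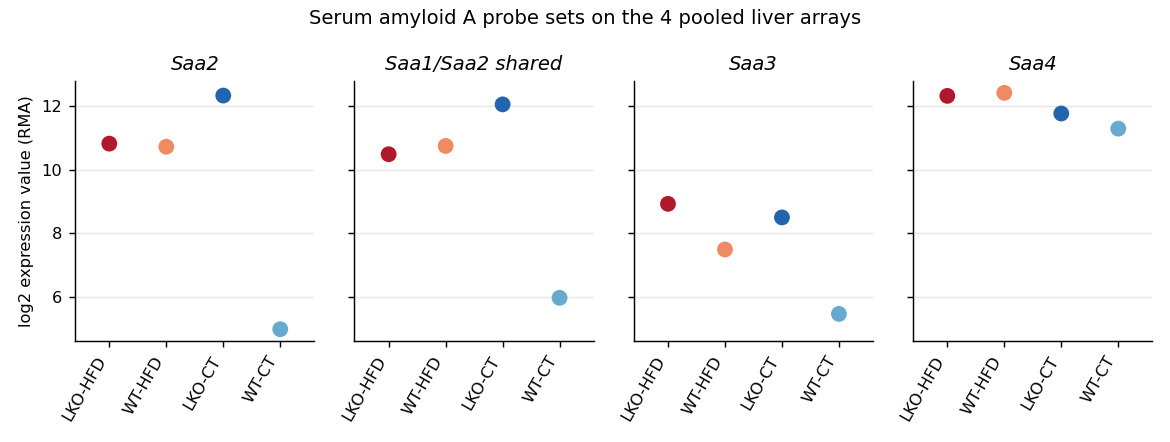
The log2 expression value (vertical axis) of Saa2, the shared Saa1 and Saa2 probe set, Saa3 and Saa4 is plotted for each of the 4 pooled arrays, 1 point per array with no error bar. WT-CT is the lowest point in every panel, at 4.97 for Saa2 and 11.30 for Saa4, and levels are to be compared within a panel only.

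Loss of hepatocyte MyD88 on control diet was read as LKO-CT minus WT-CT. Saa2 was higher by 7.37 log2, which is 165-fold and first of the 13308 measured genes. The shared set was higher by 6.10 (68.7-fold), and Saa3 by 3.04 (8.25-fold, sixth in rank with 5 genes above it). Saa4 was higher by 0.48 (1.39-fold), just outside the central 95% of measured genes, which ran between -0.45 and 0.41. Of the 3 genes with their own probe set 2 were higher by 2-fold or more and 0 lower by as much, against 0.346% and 0.158% of measured genes. These differences took part in choosing the genes, so nothing is read from the shares, here or below.

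On high-fat diet, LKO-HFD minus WT-HFD, the picture was different gene by gene. Saa2 differed by 0.10 and Saa4 by -0.10, and the shared set by -0.26, all inside the central 95% of measured genes (-0.46 to 0.56). Saa3 was higher by 1.44 (2.71-fold), with 7 measured genes further up. At least 2-fold higher was 1 of the 3 genes and at least 2-fold lower were 0, against 0.225% and 0.165% of measured genes. This comparison holds no control-diet array, so it does not rest on the low WT-CT values.

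High-fat feeding of wild-type mice, WT-HFD minus WT-CT, gave higher values for each of the genes. Saa2 was higher by 5.76 (54.0-fold), the first rank among measured genes, and the shared set by 4.79 (27.7-fold). Saa3 was higher by 2.03 (4.09-fold) and Saa4 by 1.13 (2.19-fold), with 12 and 54 measured genes above them. All 3 genes with their own set were at least 2-fold higher and 0 lower, against 0.488% and 0.564% of measured genes. This comparison and LKO-CT minus WT-CT share the WT-CT array, so they are not independent of each other.

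In knockout mice, LKO-HFD minus LKO-CT, the directions split. Saa2 was lower by a log2 difference of -1.52 (2.86-fold) and the shared set by -1.57 (2.97-fold), each with 7 measured genes further down. Saa3 was higher by 0.43 and Saa4 by 0.56, both inside the central 95% of measured genes, which ran between -0.52 and 0.57. Of the 3 genes, 0 were higher by 2-fold or more and 1 was lower by as much, against 0.323% and 0.286% of measured genes.

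**Figure D2:**
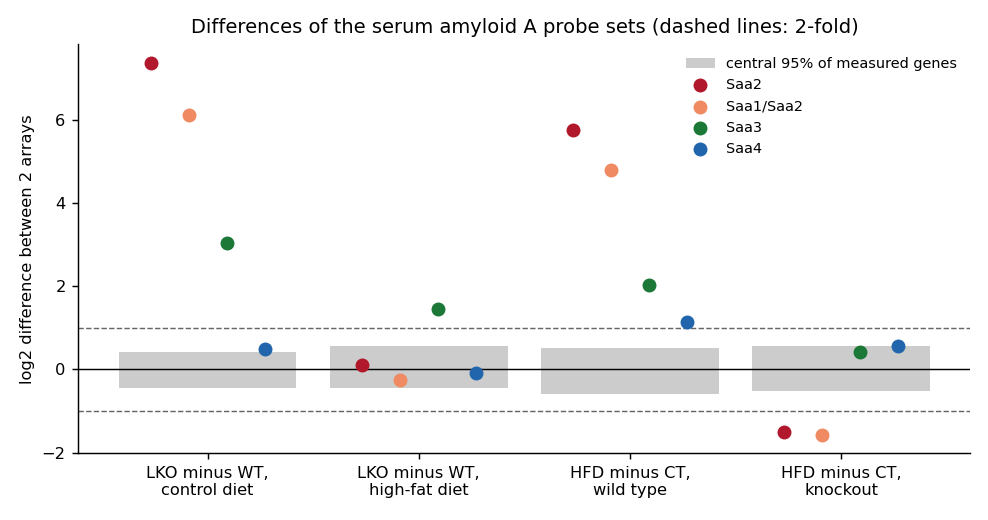
Each point is the log2 difference between 2 arrays (vertical axis) of a serum amyloid A probe set, in 4 comparisons along the horizontal axis; the grey bars span the central 95% of the 13308 measured genes and the dashed lines mark 2-fold. Saa2 is at 7.37 and 5.76 in the comparisons that subtract WT-CT, at 0.10 between the high-fat arrays and at -1.52 for diet in knockout.

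The diet difference in knockout minus that in wild type was -7.27 for Saa2, the lowest of all measured genes, -6.36 for the shared set, -1.60 for Saa3 and -0.57 for Saa4. It was at least 2-fold and negative for 2 of the 3 genes and positive for 0, against 0.556% and 0.661% of measured genes. For Saa3 and Saa4 the negative value stands for a smaller positive diet difference in knockout (0.43 and 0.56) than in wild type (2.03 and 1.13), and for Saa2 for opposite directions. With 1 array per group this difference has no test.

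The Saa2 set and the shared set, which are separate probe sets annotated to Saa2, can be set side by side in each comparison. The shared set gave a smaller difference by -1.27 log2 for genotype on control diet and by -0.96 for feeding in wild-type mice. In knockout mice both gave nearly the same value, -1.57 in the shared set and -1.52 in the Saa2 set. The gap between the sets was therefore largest where WT-CT was subtracted, the array on which the Saa2 set was at 4.97 and the shared set at 5.96.

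In the order of the RefSeq gene table the cluster on chromosome 7 runs Tph1, Saal1, Saa3, Gm31882, Saa4, Saa-ps, Saa1, Saa2, Hps5 and Gtf2h1. Saal1, which lies next to Saa3 and is named for its similarity to the family, had log2 values of 4.00 on LKO-HFD, 3.91 on WT-HFD, 3.96 on LKO-CT and 4.15 on WT-CT. Its differences ran between -0.24 and 0.09 over the 4 comparisons. Hps5, a subunit of a complex for lysosome-related organelles on the Saa2 side, differed by -0.21 to 0.02. Gtf2h1, a subunit of the general transcription factor TFIIH, differed by 0.02 to 0.54. Tph1, a tryptophan hydroxylase gene, was below the filter on dim genes. None of these neighbours reached 2-fold in any of the 4 comparisons; LOC115486835, Gm9392, Gm31882 and Saa-ps had no probe set of their own and are not described.

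**Figure D3:**
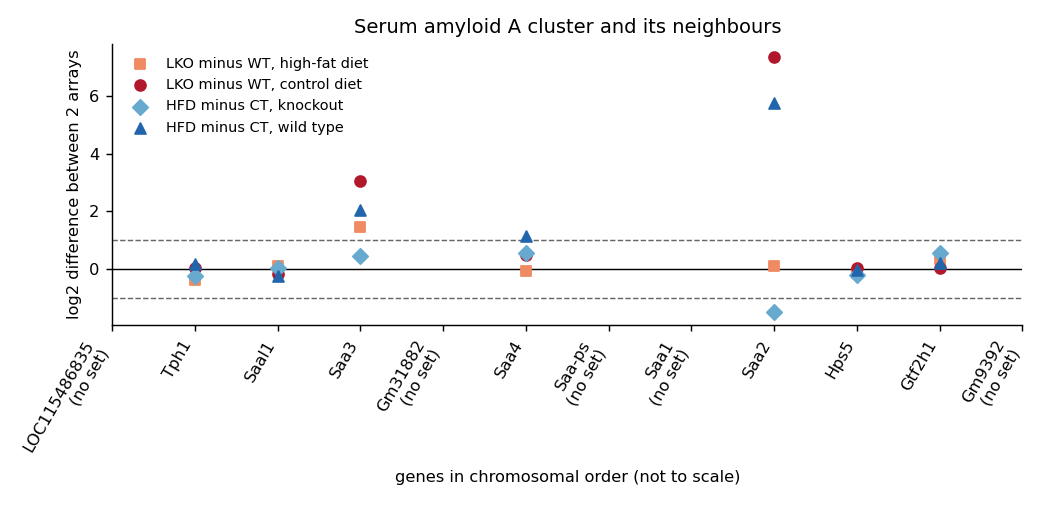
The log2 difference between 2 arrays (vertical axis) is shown for the serum amyloid A genes and the 3 genes annotated on each side, in chromosomal order and not to scale, with 1 marker per comparison and dashed lines at 2-fold. Saa2, Saa3 and Saa4 have points beyond the dashed lines, while Tph1, Saal1, Hps5 and Gtf2h1 have none.

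Among other positive acute phase genes, of 30 listed 26 were measured. On high-fat diet 15 were higher in knockout and 0 reached 2-fold, with a median of 0.06 log2 against 0.02 over all measured genes. On control diet 24 were higher in knockout, 8 of them by 2-fold or more (median 0.39 against -0.02). With high-fat feeding 22 were lower in knockout mice, 2 of them by 2-fold or more (median -0.23 against 0.01), and 17 were higher in wild-type mice, 6 of them by 2-fold or more (median 0.18 against -0.03). Over all measured genes, 0.346% passed 2-fold upwards for genotype on control diet, and 0.225% upwards and 0.165% downwards on high-fat diet. For diet, 0.286% passed it downwards in knockout and 0.488% upwards in wild type. Some of the listed acute phase genes were known from earlier results to differ here, so neither their direction nor their 2-fold counts are independent evidence.

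Lcn2, which encodes the siderophore-binding lipocalin 2, had 8.37 on LKO-HFD, 7.56 on WT-HFD, 9.27 on LKO-CT and 4.97 on WT-CT. Like Saa2 it was highest on LKO-CT and lowest on WT-CT, but its 2 high-fat arrays were 0.81 apart. Orm2, an orosomucoid gene, had 8.47 on LKO-HFD, 8.44 on WT-HFD, 9.83 on LKO-CT and 6.51 on WT-CT, the same order of arrays as Saa2. The metallothionein gene Mt2 had 10.94 on LKO-HFD, 10.47 on WT-HFD, 11.61 on LKO-CT and 8.91 on WT-CT. Its neighbour in function Mt1 had 9.33 on LKO-HFD, 8.73 on WT-HFD, 9.42 on LKO-CT and 7.01 on WT-CT. Apcs, the mouse serum amyloid P gene, whose protein binds amyloid fibrils, was singled out after its values were seen: it had 8.13 on LKO-HFD, 7.62 on WT-HFD, 10.16 on LKO-CT and 8.16 on WT-CT. Apcs was high on LKO-CT alone and, unlike the serum amyloid A genes, was not lowest on WT-CT.

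**Figure D4:**
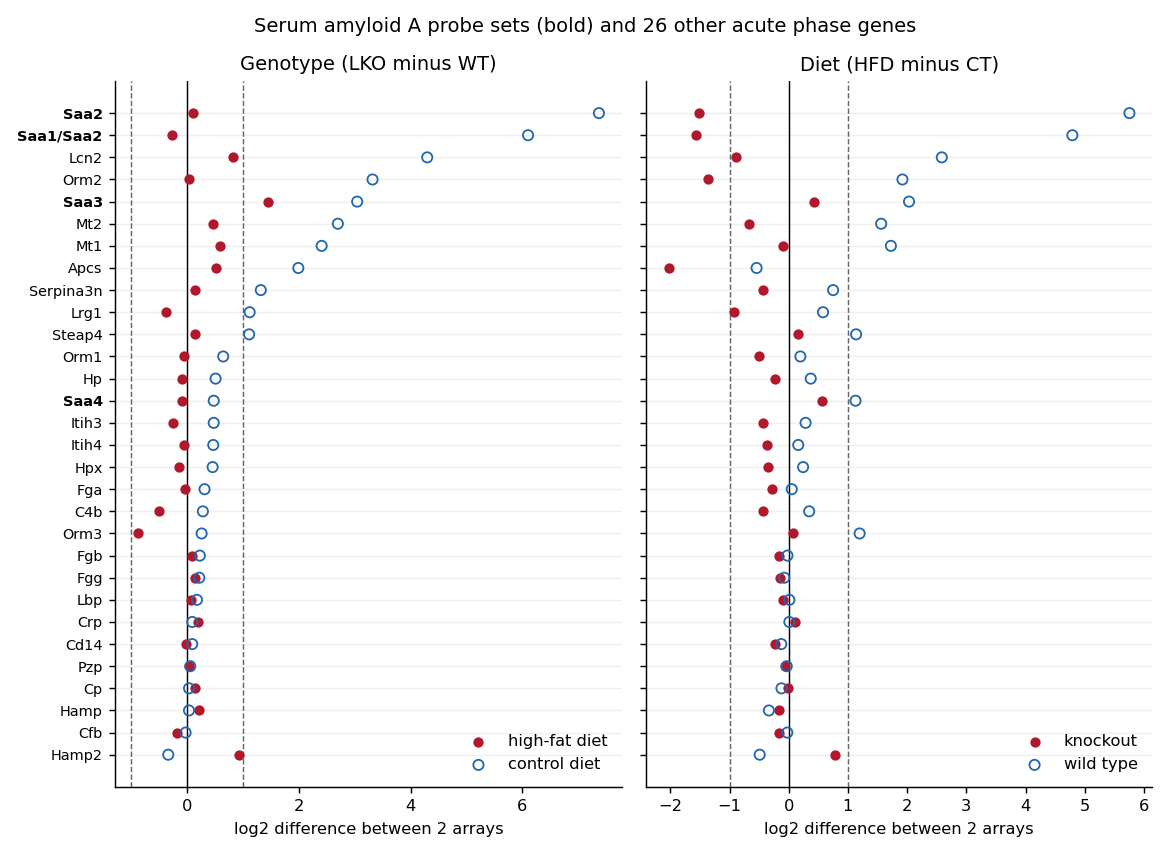
For 26 positive acute phase genes and the serum amyloid A probe sets (bold, vertical axis) the log2 difference between 2 arrays is shown on the horizontal axis, on the left for genotype with the high-fat diet filled and the control diet open, on the right for diet with knockout filled and wild type open; dashed lines mark 2-fold. Saa2 and the shared set are the points farthest to the right among the open circles, while their filled circles lie at 0.10 and -0.26 for genotype and at -1.52 and -1.57 for diet.

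The genes of cytokine ligands that induce serum amyloid A were mostly dim in whole liver. Of 8 listed, 2 were measured: Il1b, with 5.40 on LKO-HFD, 5.61 on WT-HFD, 5.29 on LKO-CT and 5.06 on WT-CT, and Il1a, with 5.37 on LKO-HFD, 5.02 on WT-HFD, 5.06 on LKO-CT and 4.83 on WT-CT. Both were lowest on WT-CT, with a range of less than 1 log2. Il6 and Tnf, named here for their role and not by the rule, were below the filter, with levels between 2.995 and 3.064 (Il6) and between 3.336 and 3.422 (Tnf). RMA values this low were not told apart from background.

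Of 9 receptor genes for these cytokines all were measured and 1 reached 2-fold in any of the 4 comparisons. Il22ra1, a subunit of the interleukin 22 receptor, had 5.42 on LKO-HFD, 5.18 on WT-HFD, 6.0005 on LKO-CT and 6.69 on WT-CT, and so was lower by -1.51 on high-fat diet in wild type. That makes it highest on the array where Saa2 was lowest. With high-fat diet in wild type, 0.564% of measured genes were at least 2-fold lower. Lifr, the receptor of leukaemia inhibitory factor, was higher by 0.72 in the same comparison. The median genotype difference of the receptors was 0.01 on high-fat diet and 0.04 on control diet, against 0.02 and -0.02 over all measured genes.

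Of 12 transcription factor genes linked to serum amyloid A promoters 9 were measured, and 0 reached 2-fold in the 4 comparisons. Stat3, the factor downstream of interleukin 6, had 8.62 on LKO-HFD, 8.77 on WT-HFD, 9.08 on LKO-CT and 8.71 on WT-CT. It was highest on LKO-CT, the array with the highest Saa2, but WT-CT was not its lowest. Nr3c1, the glucocorticoid receptor, differed by -0.26 for genotype on control diet and Hnf4a, a hepatocyte nuclear factor, by -0.30 for diet in knockout.

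Feedback targets of STAT3 and NF-kappaB were measured for 8 of 8 genes, with 0 at least 2-fold different in the 4 comparisons. Socs3, the inhibitor induced by STAT3, had 4.20 on LKO-HFD, 4.35 on WT-HFD, 4.81 on LKO-CT and 4.36 on WT-CT. Bcl3, an NF-kappaB cofactor, had 5.39 on LKO-HFD, 5.88 on WT-HFD, 6.18 on LKO-CT and 5.50 on WT-CT. Pim1, a kinase gene induced by STAT3, had 5.68 on LKO-HFD, 6.12 on WT-HFD, 6.28 on LKO-CT and 6.12 on WT-CT. These 3 were highest on LKO-CT, as Saa2 was, but lowest on LKO-HFD. Tnfaip3, the NF-kappaB inhibitor A20, was instead highest on WT-HFD, with 4.17 on LKO-HFD, 4.48 on WT-HFD, 4.03 on LKO-CT and 3.80 on WT-CT.

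Of 7 genes for receptors that bind serum amyloid A 6 were measured and 0 reached 2-fold in the 4 comparisons. Cd36, a scavenger and fatty acid receptor, had 8.68 on LKO-HFD, 7.96 on WT-HFD, 7.78 on LKO-CT and 8.44 on WT-CT, an order unlike that of any serum amyloid A gene. Partners on high-density lipoprotein and its enzymes were measured for 13 of 14 genes, 0 of them 2-fold different. Each comparison had 10 of the 13 lower, though not the same genes throughout, since Apoa1, Apoa4, Apoa5, Apom, Pon1 and Abca1 changed sign between comparisons, with medians of -0.11 (high-fat diet) and -0.06 (control diet) for genotype and of -0.05 (knockout) and -0.09 (wild type) for diet. Apom, an apolipoprotein of that particle, was lower by -0.70 for diet in knockout, and Pltp, the phospholipid transfer protein gene, by -0.59 for genotype on control diet and -0.62 for diet in wild type. Of 9 negative acute phase genes 8 were measured and their largest difference was 0.71, for Serpina6, the corticosteroid carrier gene, with diet in knockout.

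The genes whose profile over the 4 arrays was most like that of each serum amyloid A gene were found among 253 other measured genes with a range of at least 1 log2. Each profile was scaled from 0 on its lowest array to 1 on its highest, and likeness was the largest gap between the 2 scaled profiles, over 4 arrays. Nearest to Saa2 were B3galt1, a galactosyltransferase gene (gap 0.14), Cxcl1, a neutrophil chemokine gene (0.15), Prg4, which encodes lubricin (0.16), Mt1 (0.17) and Nnmt, nicotinamide N-methyltransferase (0.17). Cxcl1 was also nearest to the shared set (0.10), followed by B3galt1, Prg4, Nnmt and Lcn2 (0.15 to 0.18). Cxcl1 had 6.11 on LKO-HFD, 6.47 on WT-HFD, 6.92 on LKO-CT and 4.64 on WT-CT, and like the shared set it was higher on WT-HFD than on LKO-HFD.

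Nearest to Saa3 were Cela3b (0.11) and Cpb1 (0.12), pancreatic elastase and carboxypeptidase genes, then B3galt1 and the predicted genes Gm5150 and Gm5409 (0.12 to 0.13). Cpb1 had 10.06 on LKO-HFD, 8.93 on WT-HFD, 9.16 on LKO-CT and 6.33 on WT-CT, the array order of Saa3. Nearest to Saa4 were Slc46a3, a transporter gene (gap 0.03), Mpv17l (0.06), the clock gene Per3 (0.07), the muscle gene Neb and the unnamed transcript C730036E19Rik (0.08 each). Slc46a3 had 8.91 on LKO-HFD, 9.08 on WT-HFD, 8.15 on LKO-CT and 7.53 on WT-CT. Between the serum amyloid A genes the gaps were 0.05 for Saa2 and the shared set, 0.21 for Saa2 and Saa3, 0.45 for Saa3 and Saa4 and 0.58 for Saa2 and Saa4. The Saa4 profile therefore stood apart from the others more than they did from each other.

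**Figure D5:**
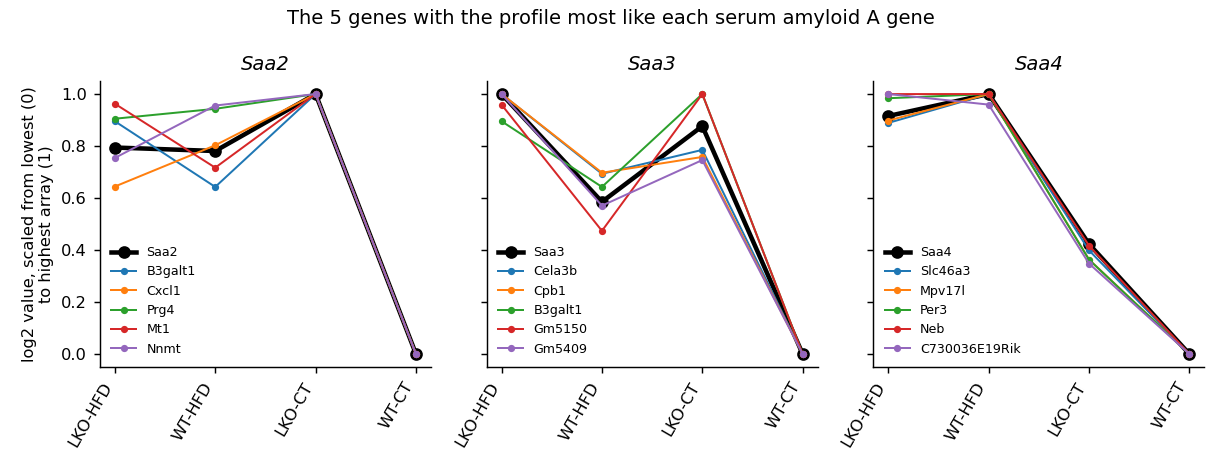
The log2 value, scaled from 0 on the lowest to 1 on the highest array (vertical axis), is drawn over the 4 arrays for Saa2, Saa3 and Saa4 (black) and for the 5 genes of most similar profile (colours). On LKO-CT the Saa2 and Saa3 groups lie between 0.75 and 1, whereas the Saa4 group lies between 0.35 and 0.42; every line is at 0 on WT-CT.

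Markers of other cells were read beside these results. Hepatocyte markers were measured for 8 of 8 genes, among them Alb and Ttr, and differed by -0.17 to 0.24 over the 4 comparisons, with 0 at 2-fold. In the exocrine pancreas list, whose sum followed Saa3, all 12 measured of 13 were higher in knockout whichever the diet, and higher with high-fat feeding whichever the genotype. Klk1, Reg1, Cpb1 and Ctrl had the largest differences. None of these markers was at 0, since RMA gives no zero values.

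Kupffer cell and macrophage markers were measured for 8 of 8 genes and 0 reached 2-fold in the 4 comparisons. Their summed level was 1563 on LKO-HFD, 1495 on WT-HFD, 1653 on LKO-CT and 1731 on WT-CT. The part of these cells in the Saa3 values was not tested. On control diet 6 of the 8 were lower in knockout (median -0.18 against -0.02 over all measured genes). Marco, a macrophage scavenger receptor gene, was lower the most, by -0.81. On high-fat diet 5 were higher in knockout (median 0.11 against 0.02), with Marco higher by 0.31. With high-fat feeding 7 were lower in wild-type mice (median -0.36 against -0.03) and 5 in knockout mice (-0.08 against 0.01). Of 10 neutrophil markers 2 were measured, with a summed level between 24.9 and 27.3, and S100a8 and S100a9, named here for their role, were below the filter. Of 7 adipocyte markers 4 were measured and Adipoq, the defining one, was below the filter at 3.12 to 3.31. The measured ones summed to 176 on LKO-HFD, 130 on WT-HFD, 121 on LKO-CT and 113 on WT-CT. The highest and lowest arrays were those of Saa3. Fabp4 had 7.07 on LKO-HFD, 6.43 on WT-HFD, 6.31 on LKO-CT and 6.10 on WT-CT. On high-fat diet 1 of the 4 (Fabp4, by 0.64) was higher in knockout and 3 were lower. The part of adipocytes in the Saa3 values was not tested.

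Gut and gastric epithelium markers, a tissue that also makes serum amyloid A, were measured for 7 of 9 genes. On control diet 3 of them were at least 2-fold higher in knockout, against 0.346% of measured genes. The mucin gene Muc6 had 3.51 on LKO-HFD, 3.42 on WT-HFD, 5.57 on LKO-CT and 3.44 on WT-CT. The trefoil factor genes Tff2 and Tff3 were higher by 1.89 and 1.23. The other measured markers differed by 0.47 (Tff1), 0.03 (Muc2), 0.004 (Gkn1) and -0.35 (Lgals4). In that comparison 6 of the 7 were higher and 1 was lower, with a median of 0.47 against -0.02 over all measured genes. With high-fat diet in knockout 5 were lower and 2 higher. Muc6 (-2.06) and Tff2 (-1.35) were at least 2-fold lower there, against 0.286% of measured genes. The summed level of the 7 measured markers was 188 on LKO-HFD, 207 on WT-HFD, 329 on LKO-CT and 186 on WT-CT. Skeletal muscle markers, 5 of 6 measured, summed to 71.3 on LKO-HFD, 202 on WT-HFD, 80.2 on LKO-CT and 88.3 on WT-CT, and did not follow the array order of Saa2, Saa3 or Saa4. The part of these tissues in the serum amyloid A values was not tested.

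The 4 arrays had medians between 3.53 and 3.56 and correlated with each other at a Pearson r of 0.985 to 0.990 over all probe sets. The targeted gene Myd88 (probe set 17532137) had 6.23 on LKO-HFD, 6.44 on WT-HFD, 5.91 on LKO-CT and 6.10 on WT-CT. The position of its probes on the gene is not known here, and non-hepatocytes keep the gene, so the small differences of -0.21 on high-fat diet and -0.19 on control diet check nothing.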

How the data were processed

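The deposited table held log2 expression values for 41345 probe sets on 4 arrays, made by the authors with RMA (background correction, quantile normalization, probe summarisation) with Affymetrix Expression Console; the submitters' processing notes name both, without versions. RMA compresses differences of dim probe sets, and detection calls and scanner batches were not used.

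Gene names came from the platform's annotation table (23521 with 1 symbol, 1814 with several, 16010 with none). Each of 22180 genes was read from its probe set of highest mean, and the 13308 at or above the 40th percentile of mean log2 value (3.47) were kept as measured. Differences are subtractions of log2 values, without any test or p-value, since each group has 1 array. The counting threshold was 2-fold. The subtraction was tested on simulated data.

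The named genes were the serum amyloid A genes, up to 4 members per list with the largest differences, the 5 genes of most similar profile, and 3 neighbours on each side of the cluster; exceptions are marked. The members and lists were chosen with earlier results of these data known. Alternatives were equal array medians, quantile normalization and cyclic loess (limma 3.58.1, R 4.3.3), the mean over probe sets, other filters, a 1.5-fold threshold and looser motifs. Promoter windows came from RefSeq (GRCm38.p6); their identity was computed over bases aligned globally (match 1, mismatch -1, gap opening -10, gap extension -0.5), a step added after the data were examined because no protein table was used here. Python 3.11.15, pandas 2.3.3, NumPy 2.4.6 and matplotlib 3.10.9 were used.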

Additional observations from a re-analysis of the deposited data

Results flagged for a closer look

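For 4 pairs of differences the sign was opposite in the 2 genotypes or on the 2 diets, which drew attention to them; with 1 array per group the difference between the effects was not tested. Saa2 differed with high-fat diet by -1.52 in knockout and by 5.76 in wild type. The shared Saa1 and Saa2 probe set did so by -1.57 in knockout and 4.79 in wild type, and it differed with genotype by -0.26 on high-fat diet and 6.10 on control diet. Saa4 differed with genotype by -0.10 on high-fat diet and 0.48 on control diet. Both genotype differences on high-fat diet, -0.26 for the shared set and -0.10 for Saa4, are within the central 95% of measured genes. The Saa2 set differed by 0.10 in that comparison. The positive value of each pair subtracts the WT-CT array, on which each of these probe sets was at its lowest.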

How the results depend on the processing

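All 20 differences of the serum amyloid A probe sets kept their sign and moved by less than 0.25 log2, a tolerance set after the values were seen, when array medians were set equal (by up to 0.03), under quantile normalization (up to 0.07) and under cyclic loess (up to 0.10); each serum amyloid A gene with its own probe set has only 1, so averaging probe sets changed none. The deposited values were already quantile normalized, with array medians between 3.53 and 3.56. Setting medians equal or normalizing again could therefore move the differences little. Reading Saa2 from the shared set gave 10.49 on LKO-HFD, 12.07 on LKO-CT and 5.96 on WT-CT. A 1.5-fold threshold asks for smaller differences and counted more genes, with 279 higher and 134 lower for genotype under high-fat feeding, 120 and 115 under control feeding, 304 and 229 for diet in knockout, 224 and 336 in wild type, and 682 and 414 for the difference of diet differences. Under the other filters and normalizations tried, the counts of genes past 2-fold were within 1.5 times those given. Looser motifs gave 3 NF-kappaB matches in place of 0 and 9 C/EBP matches in place of 5. No paired analysis was possible because each group has 1 array, and no array could be left out for the same reason. How far each signal lay above background is unknown, also for the low WT-CT values.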
